A study of Mus musculus with 7 samples.

Results

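Nicotinamide nucleotide transhydrogenase (Nnt) and 8 nuclear genes for enzymes of the mitochondrial NADPH and peroxide systems were followed by allele in mouse growth plates. The 9 genes were taken by symbol, and all of them were found among the 43346 genes with deposited counts: Nnt, Idh2, Prdx3, Prdx5, Txn2, Txnrd2, Gsr, Sod2 and Gpx4. All 9 lie on autosomes, reached 10 counts in each of the mice and were among the 21805 genes tested.

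RNA came from the proximal and distal tibial growth plates of 7 untreated male F1 hybrids of C57BL/6J (B6) and CAST/EiJ (CAST), aged 21 d. Each library was total RNA from 1 mouse, depleted of ribosomal RNA, and reads were assigned by the study to the B6 or the CAST allele of each gene. The comparison therefore sets both alleles of a gene against each other in the same nuclei, and the study ran it to find genes with allele-specific expression. There was 1 genotype, 1 age and no treated group.

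Depth was 14098019 to 37849667 estimated counts per mouse. The CAST allele held 50.3% to 50.6% of the autosomal counts, while B6 held 90.2% to 91.6% of the X-linked counts and 99.98% to 99.99% of the mitochondrial counts. CAST was thus the paternal allele in every mouse, so strain of origin and parent of origin cannot be told apart. The samples are labelled as growth plate chondrocytes, and all 14 of 14 chondrocyte markers were detected in every mouse, with a summed level of 65125 to 102142 counts per 1000000 counts of the mouse (CPM). Markers of other cells were detected too: 7 of 8 erythroid markers were found in the files and had a summed level of 8359 to 20289 CPM, 8 of 8 fast muscle markers summed to 3645 to 7944 CPM, and 7 of 7 osteoblast markers summed to 36655 to 66163 CPM.

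Superoxide made by respiration is turned into hydrogen peroxide in the mitochondrial matrix, and the peroxide is then reduced with electrons taken from NADPH. The transhydrogenase encoded by Nnt uses the proton gradient across the inner membrane to pass electrons from NADH to NADP+, and isocitrate dehydrogenase 2 (Idh2) makes NADPH in the matrix from isocitrate. Electrons then flow along one arm through thioredoxin reductase 2, thioredoxin 2 and the peroxiredoxins, and along another through glutathione reductase, glutathione and glutathione peroxidases. C57BL/6J is known for a deletion of several exons of Nnt that leaves the strain without the working enzyme, whereas CAST/EiJ is not known to carry it.

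The sites at which 6 of these enzymes pass on electrons are short runs of coding sequence, shown here because they define the role of each member. They were read 5′ to 3′ from GENCODE M21 transcripts of the reference genome, which is a C57BL/6J genome (GRCm38), so they are reference letters and not letters read in these mice. Capitals mark the codons of the redox-active cysteines in the first 5 and the TGA codon read as selenocysteine in the last 2.
Txn2, cysteine pair: gcacagtggTGTggccccTGCaagatccta
Txnrd2, cysteine pair: ggcaccTGTgtcaacgtgggtTGCataccc
Gsr, cysteine pair: ggcactTGCgtgaatgttggaTGTgtaccc
Prdx3, peroxidatic cysteine: gatttcacatttgtgTGTcctacagaaatt
Prdx5, peroxidatic cysteine: gcatttacacctggcTGTtctaagacccac
Txnrd2, selenocysteine: gagcctactgtgactggttgcTGAggctaa
Gpx4, selenocysteine: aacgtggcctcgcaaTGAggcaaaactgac
The Txn2 window lies in chr15:77924642-77927696 on the minus strand. The Txnrd2 windows lie at chr16:18437522-18437551 in exon 4 and at chr16:18477751-18477780 in exon 17, on the plus strand. The Gsr window lies in chr8:33653771-33669173 on the plus strand and runs from exon 1 into exon 2. The Prdx3 window lies in chr19:60870115-60871424 and the Prdx5 window in chr19:6907668-6908005, both on the minus strand. The Gpx4 window lies at chr10:80054722-80054751 on the plus strand, in exon 3. The Txn2, Gsr, Prdx3 and Prdx5 windows span an intron. The reductases Txnrd2 and Gsr, which both take electrons from NADPH, carry their cysteine pair with the same spacing, whereas the pair of Txn2 is closer together.

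Of the 9 genes, 4 differed between alleles at a false discovery rate (FDR) under 0.20, the threshold of the study, by edgeR's likelihood-ratio test with Benjamini-Hochberg adjustment over all 21805 tested genes. CAST was higher for Nnt and Txn2, and B6 was higher for Gsr and Prdx5. Across all tested genes the same test called 32.6%, with 15.4% higher from CAST and 17.2% higher from B6, so 4 of 9 (44.4%) was a share near that of genes at large. The 4 called genes were also those with the same direction in all 7 mice, a property of 28.8% of the 9632 well-counted autosomal genes, those with 100 counts or more in each mouse. The median log2 fold change (CAST over B6) of the 9 genes was 0.11, beside 0.01 over all tested genes, and the median size regardless of direction was 0.27, beside 0.22. Nothing in the labels says that the 7 mice came from separate litters, so the tests measure the spread between these mice.

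**Figure D1:**
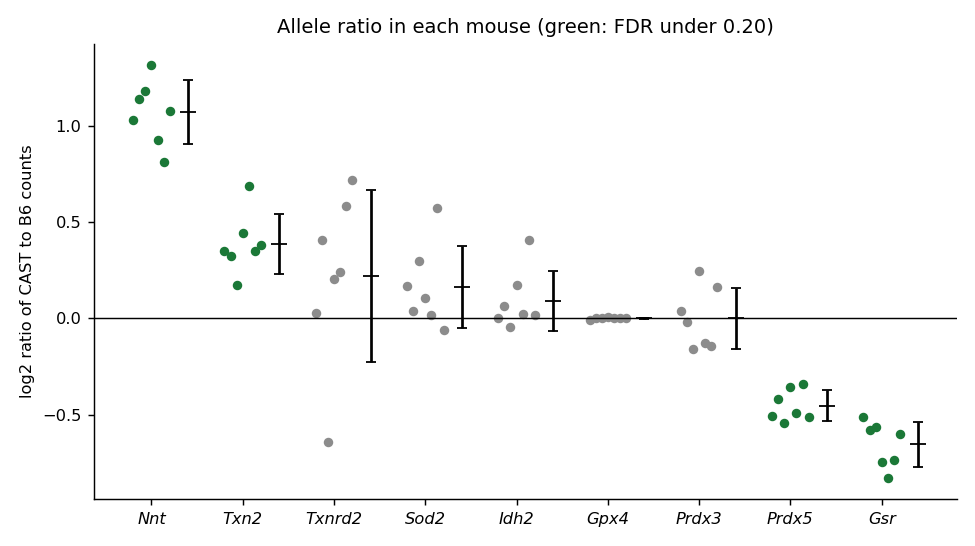
Log2 ratio of CAST over B6 counts for the 9 genes, 1 point per mouse, with the mean and SD beside the points. Nnt lies above 0 in all 7 mice and Gsr and Prdx5 lie below 0 in all 7, whereas Prdx3 is spread around 0 and the points of Gpx4 sit on it.

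Nnt (ENSMUSG00000025453), the transhydrogenase, lies on chromosome 13 from 119335448 to 119408997 on the minus strand. The B6 allele had 409, 280, 265, 155, 469, 191 and 253 counts in mice 1, 2, 3, 4, 5, 7 and 8. The CAST allele had 837, 617, 604, 387, 893, 335 and 535 counts in the same mice. CAST was the higher allele in every mouse, and once each allele was scaled to the depth of its mouse the ranges no longer touched, at 7.37 to 13.5 CPM for B6 and 18.4 to 27.4 CPM for CAST. Ranges that did not overlap, whatever the gap, were found for 6.97% of the well-counted autosomal genes.

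The mean was 289 ± 113 (SD, n = 7) B6 counts of Nnt against 601 ± 209 (SD, n = 7) CAST counts. This was a log2 fold change of 1.08 ± 0.10 (SE), or 2.11-fold, with an FDR of 6.95e-25 by edgeR's likelihood-ratio test. A two-sided exact permutation test, which flips the signs of the log2 ratios of the 7 mice, gave p = 0.0156, the smallest that 7 mice allow. CAST supplied 67.7% ± 2.54 (SD, n = 7) of the Nnt counts, from 63.8% in mouse 7 (95% Wilson interval 59.5% to 67.7%) to 71.4% in mouse 4 (67.5% to 75.0%). Such intervals cover counting error only. A difference of that size in either direction was measured for 2.16% of the well-counted autosomal genes.

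The B6 allele of Nnt was therefore lower but far from absent, with at least 155 counts in every mouse. The transcripts named Nnt in GENCODE M21, an annotation of the C57BL/6J reference, have at most 16 coding exons and 835 codons. The CAST transcriptome used by the study was made from that reference with single-base variants and small insertions and deletions, and whether it held the exons that C57BL/6J lacks is not given in the sources used here. Reads from exons that are in neither sequence could not have been counted for either allele. The ratio is thus one of reads over the annotated exons, and nothing was measured here about which exons each allele used or about the protein. GENCODE M21 also lists a second model of Nnt at the same place, identical over 3339 bases, which is not among the genes with deposited counts.

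**Figure D2:**
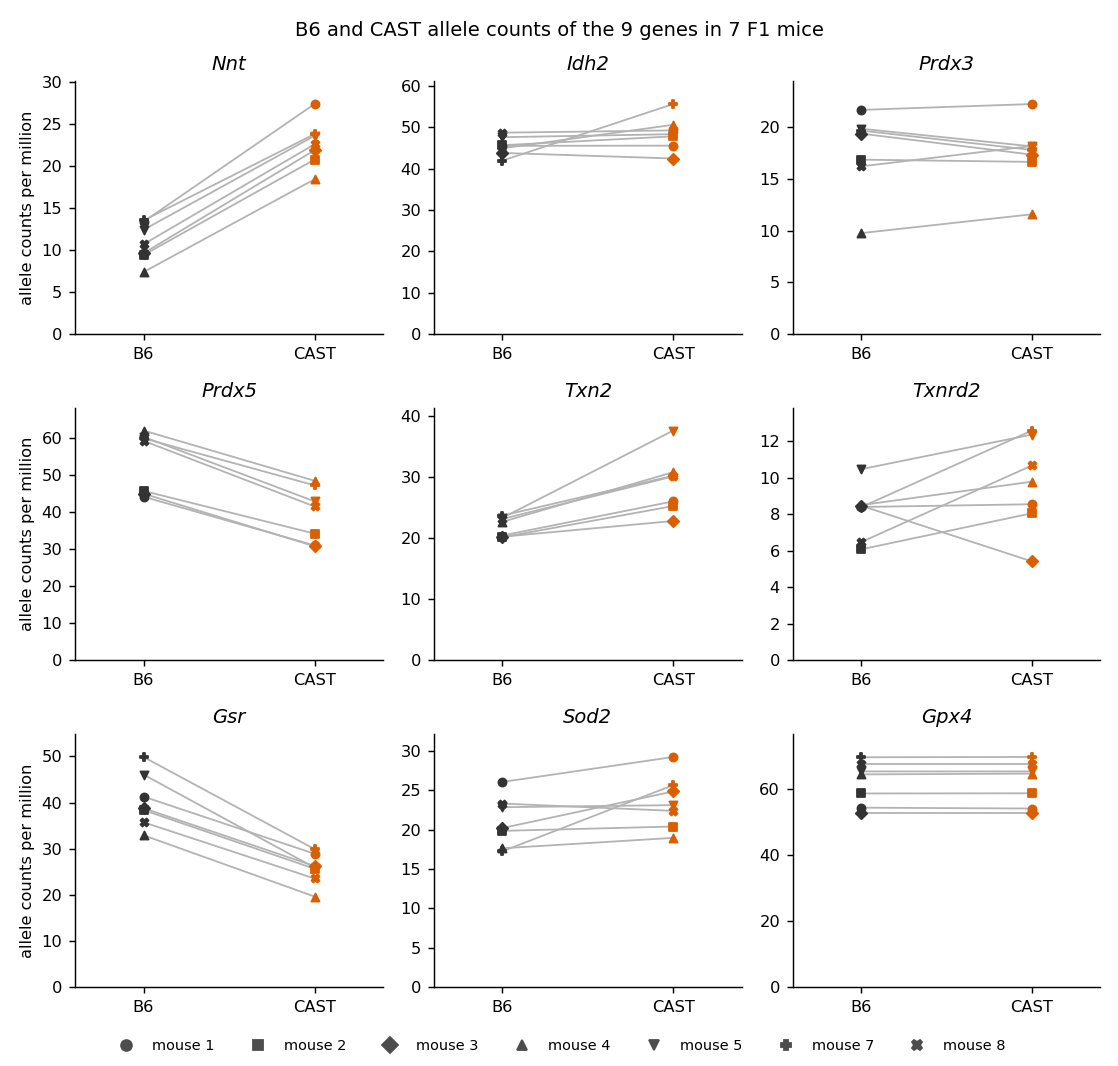
Level of the B6 and the CAST allele in CPM in each of the 7 mice for the 9 genes, with a line joining both alleles of a mouse. The lines of Nnt rise from B6 to CAST in every mouse, those of Gsr and Prdx5 fall in every mouse, and those of Gpx4 are level.

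The log2 ratio of Nnt was above that of each of the other 8 genes in all 7 mice. The difference between the ratios ranged from 0.68 ± 0.26 (SD, n = 7) against Txn2 to 1.73 ± 0.17 against Gsr. Each of the 8 comparisons gave p = 0.0156 in the exact sign-flip permutation test, and 0.0156 after Benjamini-Hochberg adjustment over the 8. The alleles of Gpx4 differed by at most 7.96 counts in a mouse, so the comparison with Gpx4 in effect repeats the ratio of Nnt itself.

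The genes next to Nnt went in both directions. Of the 10 nearest tested genes that had 10 counts or more in each mouse, 5 on each side, 7 were called, 3 higher from CAST and 4 higher from B6, against 33.6% of autosomal genes with that many counts. Paip1, a regulator of translation that starts 20 kb away, had a log2 fold change of 0.37 ± 0.14 (SE, edgeR FDR 0.0310), with CAST higher in 6 of 7 mice. The next gene out, 4833420G17Rik, went the other way with 199 ± 64.3 B6 and 65.1 ± 22.4 CAST counts (SD, n = 7) and a log2 fold change at −1.60 ± 0.12 (SE, edgeR FDR 4.45e-41).

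Gm9752, a noncoding gene within the same stretch, was also higher from B6, at a log2 fold change of −1.26 (edgeR FDR 4.10e-06). The opposite was measured for 3110070M22Rik, with 8.74 B6 and 20.5 CAST counts on average, a log2 fold change of 1.29 (edgeR FDR 0.000102). Its CAST allele was higher in 6 of 7 mice, at 49.2% to 84.0% of the counts. Both 4833420G17Rik and Gm9752 overlap, on opposite strands, and had totals that were not whole numbers in 6 mice, which marks reads divided between genes. The total of 3110070M22Rik was not whole in any of the 7 mice. Hmgcs1, an enzyme of sterol synthesis, was slightly higher from CAST at 0.23 (edgeR FDR 0.157).

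On the other side of Nnt, Mrps30 and Parp8 were higher from B6, at log2 fold changes of −0.24 (edgeR FDR 0.172) and −0.57 (edgeR FDR 6.89e-05). Emb had a log2 fold change of −0.03, Itga1 of 0.15 and Pelo of −0.19, and none of these passed the threshold. With the mouse as a block in edgeR's quasi-likelihood test, Itga1 (FDR 0.140) and Pelo (FDR 0.103) passed as well. The farthest of the 10 genes lies 4245 kb from Nnt.

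**Figure D3:**
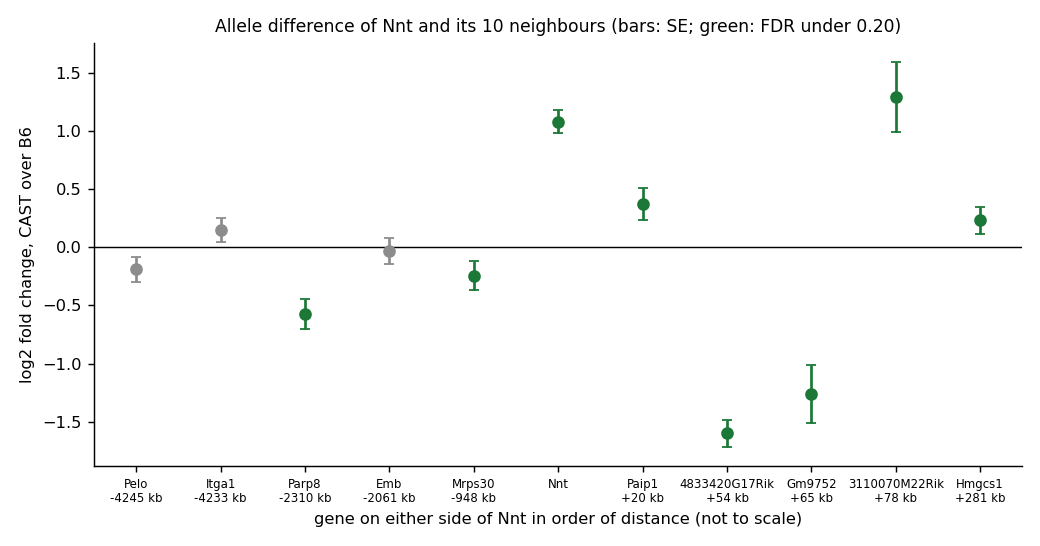
Log2 fold change of CAST over B6 for Nnt and the 5 nearest tested genes on each side, with standard errors as bars and genes under an FDR of 0.20 in green. Nnt at 1.08 stands between genes of both signs, with 4833420G17Rik at −1.60 only 54 kb away.

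Idh2, the matrix isocitrate dehydrogenase, lies on chromosome 7 from 80094846 to 80115392 on the minus strand. Its B6 counts ran from 591 through a median of 1210 to 1803, and its CAST counts from 785 through 1172 to 1830. The ranges of the alleles overlapped, and CAST supplied 49.2% to 53.0% in 6 mice and 57.0% in mouse 7 (95% Wilson interval 54.4% to 59.6%). The log2 fold change was 0.11 ± 0.09 (SE), with a 95% interval of −0.07 to 0.30 and an edgeR FDR of 0.488. Without mouse 7 it was 0.06 (edgeR FDR 0.832). With the mouse as a block the edgeR FDR was 0.141 by the likelihood-ratio test, past the threshold, and 0.228 by the quasi-likelihood test. The exact sign-flip permutation test over 7 mice gave p = 0.141.

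In the thioredoxin arm, Txn2 was called higher from CAST and Prdx5 higher from B6, and Txnrd2 and Prdx3 did not pass the threshold. Thioredoxin reductase 2 (Txnrd2), the selenoprotein that reduces thioredoxin 2 with NADPH, lies on chromosome 16 from 18426384 to 18479073 on the plus strand. Its counts were the lowest of the 9 genes, from 118 through a median of 181 to 397 for B6 and from 150 through 240 to 468 for CAST. CAST supplied 50.4% to 62.2% in 6 mice but only 39.0% in mouse 3 (95% Wilson interval 34.3% to 44.0%).

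The log2 fold change of Txnrd2 was 0.27 ± 0.16 (SE), with a 95% interval of −0.05 to 0.59 and an edgeR FDR of 0.274. Without mouse 3 it was 0.37 with an edgeR FDR of 0.0517, which passed the threshold. The exact sign-flip permutation test over all 7 mice gave p = 0.234. The total of Txnrd2 was not whole in 3 mice, which marks reads divided between genes.

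Thioredoxin 2 (Txn2), the small dithiol protein that reduces the peroxiredoxins, lies on chromosome 15 from 77915047 to 77929006 on the minus strand. The B6 allele had 624, 599, 558, 476, 881, 334 and 548 counts in mice 1, 2, 3, 4, 5, 7 and 8, against 795, 751, 629, 647, 1422, 425 and 713 from CAST. CAST was higher in every mouse, by the most in mouse 5 with 61.7% and the least in mouse 3 with 53.0%. The log2 fold change was 0.42 ± 0.12 (SE, edgeR FDR 0.00194), and the exact sign-flip permutation test gave p = 0.0156. The CPM ranges of the alleles overlapped, at 20.1 to 23.7 for B6 and 22.8 to 37.6 for CAST. Txn2 transcripts share runs of 75 to 90 bases with 10 other genes, and the total was not whole in 6 mice.

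Peroxiredoxin 3 (Prdx3), the peroxiredoxin confined to mitochondria, lies on chromosome 19 from 60864051 to 60874556 on the minus strand. Its alleles were measured at 475 ± 199 B6 and 467 ± 179 CAST counts (SD, n = 7). CAST was higher in 3 mice and lower in 4, from 47.2% in mouse 3 to 54.3% in mouse 4. The log2 fold change was 0.01 ± 0.12 (SE), with a 95% interval of −0.23 to 0.25, so a difference the size of those of Nnt or Gsr was outside the interval.

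Peroxiredoxin 5 (Prdx5), which is found in mitochondria, peroxisomes and cytosol, lies on the same chromosome from 6906697 to 6910106 on the minus strand. The B6 allele had 1350, 1360, 1241, 1303, 2282, 844 and 1403 counts in mice 1, 2, 3, 4, 5, 7 and 8, against 949, 1017, 850, 1018, 1623, 666 and 984 from CAST. B6 was higher in every mouse and by a similar share, CAST supplying 40.6% to 44.1%. The log2 fold change was −0.43 ± 0.15 (SE, edgeR FDR 0.0195), and the exact sign-flip permutation test gave p = 0.0156.

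Prdx5 and Trmt112, an activator of methyltransferases, overlap on opposite strands over 360 bases, and the total of Prdx5 was not whole in any of the 7 mice. Trmt112 itself had 230 B6 and 224 CAST counts on average, a log2 fold change of −0.08 ± 0.17 (SE, edgeR FDR 0.888). The libraries were made with a stranded kit, but whether strand was used in counting is not given in the sources used here, so reads of overlapping genes on opposite strands cannot be told apart.

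In the glutathione arm, glutathione reductase (Gsr) had the largest B6 excess of the 9 genes, and the counts of the peroxidase Gpx4 were nearly evenly divided between alleles. Gsr, which returns oxidised glutathione to its reduced form with NADPH, lies on chromosome 8 from 33652523 to 33698163 on the plus strand. The B6 allele had 1263, 1141, 1070, 692, 1744, 703 and 847 counts in mice 1, 2, 3, 4, 5, 7 and 8, against 884, 763, 724, 412, 980, 422 and 557 from CAST. B6 was higher in every mouse, and the CPM ranges did not overlap, at 32.9 to 49.9 for B6 and 19.6 to 29.9 for CAST.

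The means were 1066 ± 371 B6 and 677 ± 221 CAST counts of Gsr (SD, n = 7), and the log2 fold change was −0.64 ± 0.09 (SE), or 1.55-fold higher from B6. The edgeR FDR was 5.33e-11, and the exact sign-flip permutation test gave p = 0.0156. All totals of Gsr were whole numbers. CAST supplied 38.9% ± 1.92 (SD, n = 7), the smallest share being 36.0% in mouse 5 and the largest 41.2% in mouse 1.

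Glutathione peroxidase 4 (Gpx4), the selenoprotein that reduces lipid hydroperoxides, lies on chromosome 10 from 80047166 to 80056439 on the plus strand. Both alleles averaged 1608 counts, with SDs of 455 over 7 mice. CAST supplied 50.0% ± 0.0638, a spread far below the counting error of the Wilson intervals, which reached from 47.8% to 52.2% in mouse 7. The alleles of a mouse differed by at most 7.96 counts. Reads that match both alleles are divided between them by the counting method, and how many reads of Gpx4 told the alleles apart is not in the counts, so equal expression was not measured as such. A processed pseudogene, Gpx4-ps2, is 99.7% identical over 762 bases and is not among the genes with deposited counts.

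Superoxide dismutase 2 (Sod2), the manganese enzyme that turns matrix superoxide into hydrogen peroxide, lies on chromosome 17 from 13006846 to 13040063 on the plus strand. Its counts ran from 243 through a median of 558 to 866 for B6 and from 362 through 607 to 895 for CAST. CAST was higher in 6 of 7 mice, from 49.0% in mouse 8 to 59.8% in mouse 7 (95% Wilson interval 55.9% to 63.7%). The log2 fold change was 0.17 ± 0.10 (SE), with a 95% interval of −0.01 to 0.36 and an edgeR FDR of 0.208, just outside the threshold. Without mouse 7 it was 0.11 (edgeR FDR 0.521). With the mouse as a block the edgeR FDR was 0.0620 by the likelihood-ratio test and 0.153 by the quasi-likelihood test, both past it, whereas the exact sign-flip permutation test over 7 mice gave p = 0.0781.

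Sod2 transcripts contain 3110 bases that are 98.3% identical to a transcript of Rps6ka2, and the total of Sod2 was not whole in any of the 7 mice. Rps6ka2, a ribosomal S6 kinase, had a log2 fold change of 0.13 ± 0.12 (SE, edgeR FDR 0.506). All totals of Rps6ka2 were whole numbers, so its counts show no reads divided with another gene. Sod2 transcripts matched 25 genes in all, 20 of them with deposited counts. The part of such shared sequence in the counts of Sod2 was not tested.

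Levels of both alleles together were compared between genes as CPM per kb of merged exons. Gpx4 was highest at 71.6 ± 7.68 (SD, n = 7), followed by Prdx5 at 43.6 ± 7.28 and Idh2 at 36.3 ± 1.60. Gsr at 24.0 ± 3.23 and Prdx3 at 23.7 ± 4.68 came next, then Txn2 at 12.1 ± 1.48. Nnt at 4.76 ± 0.705, Sod2 at 4.45 ± 0.583 and Txnrd2 at 4.04 ± 0.751 were the lowest on this scale.

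Neighbours in this order differed for 4 of 8 pairs in exact sign-flip permutation tests adjusted over the 8, each with an adjusted p of 0.0312: Gpx4 over Prdx5, Idh2 over Gsr, Prdx3 over Txn2 and Txn2 over Nnt. The other pairs did not differ beyond their spread, with adjusted exact p of 0.050 for Prdx5 and Idh2, 0.703 for Gsr and Prdx3, 0.0625 for Nnt and Sod2, and 0.304 for Sod2 and Txnrd2. With the length of the longest transcript in place of merged exons, Idh2 came above Prdx5 and Txn2 came above Gsr and Prdx3, so these placings rest on the length chosen. Nnt was then above Sod2 in 7 of 7 mice, with an adjusted exact p of 0.0312. Nnt, Sod2 and Txnrd2 remained the lowest in that order.

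**Figure D4:**
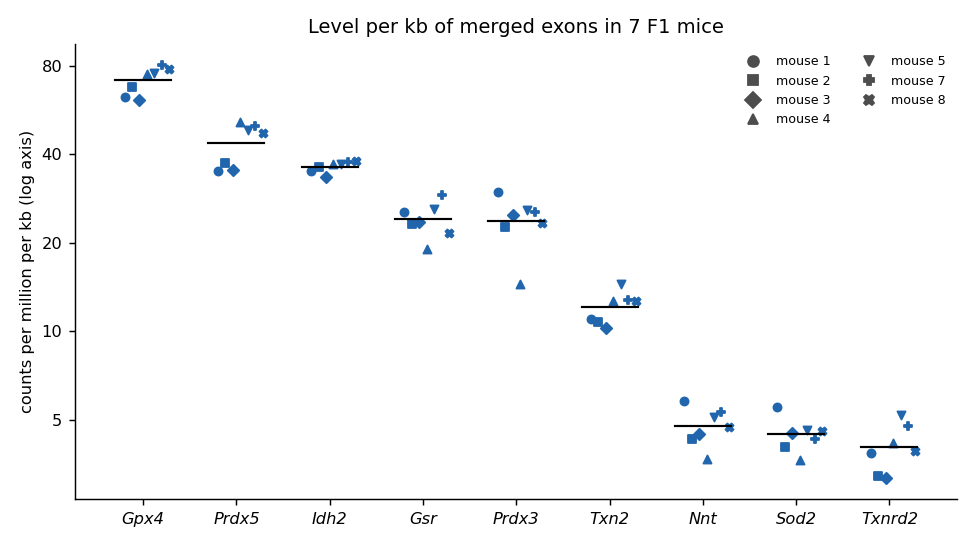
Level of the 9 genes in CPM per kb of merged exons on a log axis, both alleles summed, 1 point per mouse and the mean as a line. Gpx4 is highest at a mean of 71.6, and Nnt, Sod2 and Txnrd2 lie near 4 to 5 with overlapping points.

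Across the mice, the level of Nnt ran from 25.8 CPM in mouse 4 to 40.7 CPM in mouse 1, with a coefficient of variation of 14.8%. Idh2 was at 94.0 ± 4.15 CPM (SD, n = 7), with a coefficient of variation of 4.41%, but with TMM library sizes its SD was 8.97 about a mean of 94.3. Prdx3 ran from 21.4 CPM in mouse 4 to 44.0 CPM in mouse 1, a coefficient of variation of 19.7%. Which genes varied most or least across mice depended on the library size used. In tissue RNA, fewer cells of a type and less RNA per cell cannot be told apart.

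Nnt, Prdx3 and Sod2 were each lowest in mouse 4 and highest in mouse 1. The 8 fast muscle markers had their lowest sum in mouse 4 (3645 CPM) and their highest in mouse 1 (7944 CPM) too. Osteoclast and adipocyte sums were also lowest in mouse 4, at 4147 and 152 CPM, but highest in mice 2 and 5. Chondrocyte sums were reversed at these ends, with 102142 CPM in mouse 4 and 69772 CPM in mouse 1. Their lowest value was 65125 CPM in mouse 8. In mice 5 and 7 the muscle sums were 4005 and 3761 CPM. In these mice Nnt was at 36.0 and 37.3 CPM and Prdx3 at 38.0 and 37.5 CPM, above all mice but mouse 1. Sod2 was at 46.0 and 42.9 CPM there, and its value in mouse 7 was below those of mice 3 and 8, at 45.1 and 45.7 CPM. Gsr was also lowest in mouse 4, at 52.5 CPM, but highest in mouse 7, at 79.8 CPM.

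A different order was seen for Prdx5, Gpx4, Txn2, Idh2 and Txnrd2. Prdx5 was at 75.2 to 79.9 CPM in mice 1, 2 and 3 and at 101 to 110 CPM in mice 4, 5, 7 and 8. Gpx4 was at 105 to 117 CPM and 129 to 139 CPM in the same mice. Txn2 likewise ran from 43.0 to 46.4 CPM and from 53.2 to 60.9 CPM. Idh2 ran from 86.3 to 93.5 CPM and from 95.6 to 98.0 CPM. The gap was narrow for Txnrd2, at 13.9 to 17.0 CPM and 17.2 to 22.9 CPM. This division of the mice was read from the levels themselves. How many of all genes divide the mice in this way was not counted, so it is not shown to be particular to these genes. Between whole libraries, the chi-square per degree of freedom was 24.0 to 35.8 among mice 1, 2 and 3. It was 44.4 to 89.2 between these mice and the others, and 14.2 to 47.1 among the others. The 7 erythroid markers summed to 8359 to 10389 CPM in mice 1, 2 and 3 and to 11072 to 20289 CPM in the others. Neutrophil markers likewise summed to 1509 to 1870 CPM and 2155 to 3237 CPM. Osteoblast markers went the other way, at 54900 to 66163 CPM in mice 1, 2 and 3 and 36655 to 47213 CPM in the others, as did endothelial markers, at 285 to 323 CPM and 233 to 253 CPM. Sums of chondrocyte, B-lineage, fast muscle, osteoclast and adipocyte markers did not separate these mice. The abundant Rn7s RNAs, which count in the library size, were 15.5% to 18.5% of counts in mice 1, 2 and 3. In the others they were 19.6% to 23.8%. The part of cartilage, muscle, blood, bone, fat or vessel cells or of these RNAs in the levels was not tested. The labels give no batch that divides the mice.

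The level of Nnt over the 7 mice, as log2 CPM, was closely followed by Ikbkg (Pearson r = 0.989) and Camta1 (r = 0.987), which were among the 3 genes most like it of 9942 with 100 counts or more in each mouse. Among the other 8 genes, r with Nnt was 0.908 for Prdx3, 0.869 for Sod2 and 0.829 for Gsr. It was 0.342 for Txnrd2, 0.091 for Txn2, 0.01 for Idh2, −0.06 for Gpx4 and −0.23 for Prdx5. Prdx3, Sod2 and Gsr held ranks 392, 815 and 1302 among 9941 genes, so many other genes followed Nnt more closely. These values describe 7 libraries that share their depth and cell makeup across genes, and are given without a test.

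Beyond the 9 genes, 60 autosomal genes of 4 redox lists were tested, and 15 of them (25.0%) were called, 8 higher from CAST and 7 higher from B6. Among all autosomal tested genes the share called was 31.2%. The 60 include Glrx, Srxn1 and Fth1, whose alleles had equal counts in all 7 mice. Reads that match both alleles are divided between them, so genes not called were not all shown to be equal. With the mouse as a block, edgeR's quasi-likelihood test called 28 of the 60, where it called 36.5% of all autosomal tested genes, and the likelihood-ratio test called 33, where it called 41.8%. X-linked Prdx4 and G6pdx, a peroxiredoxin of the endoplasmic reticulum and glucose-6-phosphate dehydrogenase, were left out of these counts, because a male mouse carries only the maternal X.

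Of 22 peroxide and glutathione enzymes outside the 9 genes, 5 were higher from CAST and 3 from B6, and with the mouse as a block the quasi-likelihood test called 6 in each direction. Cytosolic superoxide dismutase (Sod1) was higher from B6 with a log2 fold change of −0.61 ± 0.10 (SE, edgeR FDR 1.76e-08). The value of Sod2 had the other sign, but Sod2 was not called. Both subunits of glutamate-cysteine ligase, which starts glutathione synthesis, were called in opposite directions, the catalytic Gclc at 0.39 (edgeR FDR 0.0393) and the modifier Gclm at −0.63 (edgeR FDR 0.000709). Extracellular superoxide dismutase (Sod3) at 0.39 and mitochondrial glutaredoxin 5 (Glrx5) at 0.30 were higher from CAST, and the microsomal transferase Mgst1 at −0.31 was higher from B6, each in 7 of 7 mice.

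Of 10 other genes of the thioredoxin system, 2 were called and both were higher from B6, but with the mouse as a block edgeR's quasi-likelihood test called 2 higher from CAST and 2 higher from B6. Txnrd1, the cytosolic counterpart of Txnrd2, had a log2 fold change of −0.36 ± 0.09 (SE, edgeR FDR 0.00126), with B6 higher in every mouse. Msrb3, a methionine sulfoxide reductase, had −0.47 ± 0.10 (SE, edgeR FDR 2.54e-05). Txn1, the cytosolic counterpart of Txn2, was not called, but its alleles had equal counts in 6 of 7 mice, so equal expression was not measured as such.

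Of 14 other genes of NADPH supply, 3 were higher from CAST and 2 from B6, and with the mouse as a block the quasi-likelihood test called 7 higher from CAST and 1 from B6. The mitochondrial NAD kinase (Nadk2), which makes the NADP+ that Nnt and Idh2 reduce, had 109 B6 and 165 CAST counts on average, a log2 fold change of 0.62 ± 0.16 (SE, edgeR FDR 0.000648), with CAST higher in 7 of 7 mice. Its cytosolic counterpart Nadk had −0.27 ± 0.09 (SE, edgeR FDR 0.00875), with B6 higher in 7 of 7 mice. Phosphogluconate dehydrogenase (Pgd) at 0.31 (edgeR FDR 0.0369) and mitochondrial malic enzyme 2 (Me2) at 0.24 (edgeR FDR 0.0774) were higher from CAST in every mouse. Idh1, the cytosolic counterpart of Idh2, was called at −0.21 (edgeR FDR 0.186) but not with the mouse as a block in the quasi-likelihood test (FDR 0.228), and it is named here after its value was seen.

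Of 14 genes of the Nrf2 pathway, the main transcriptional response to oxidants, none passed an FDR of 0.20 in edgeR's likelihood-ratio test, and none had an unadjusted p under 0.05. Among them, Fth1 had equal counts for both alleles in all 7 mice. The quasi-likelihood test called 0, DESeq2 called 1, and with the mouse as a block the likelihood-ratio test called 5 and the quasi-likelihood test called 4.

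**Figure D5:**
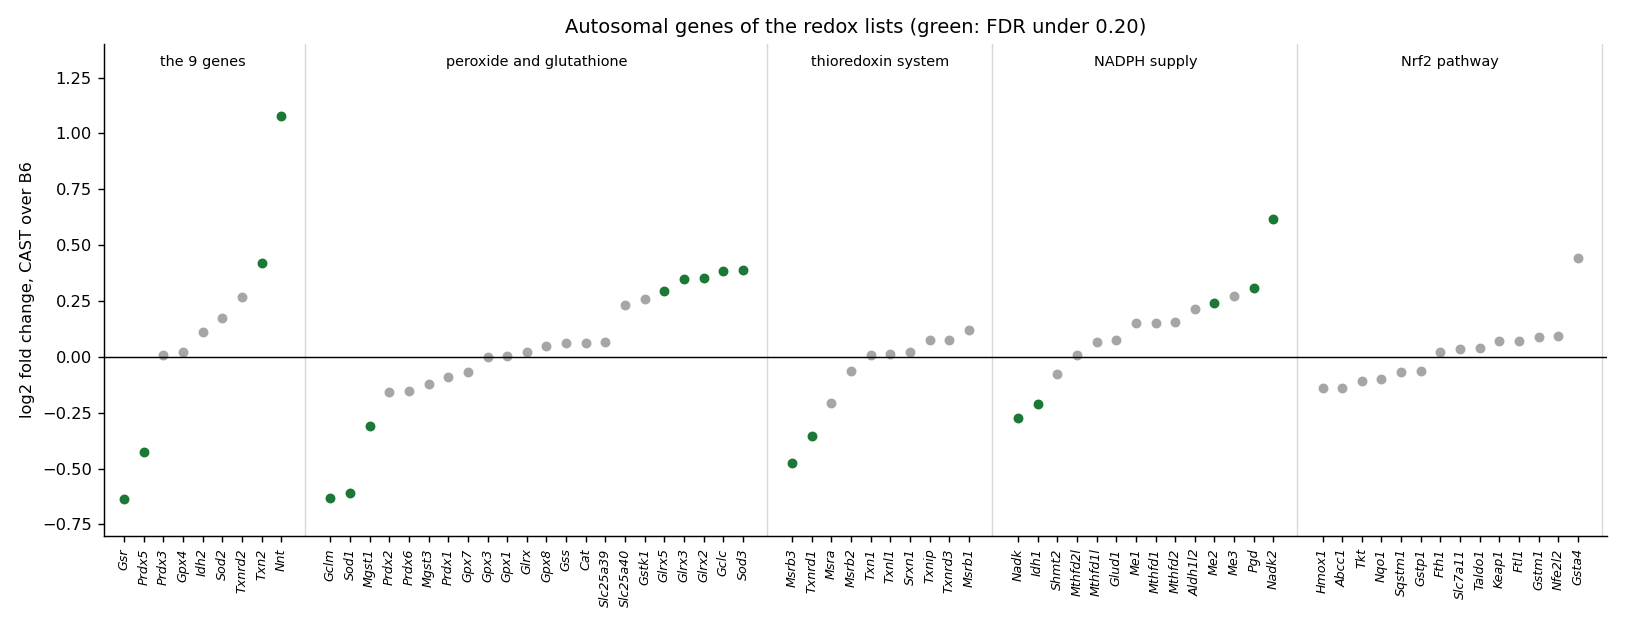
Log2 fold change of CAST over B6 for the 9 genes and for the 60 autosomal genes of 4 redox lists, ordered within each list, with genes under an FDR of 0.20 in green. Nnt at 1.08 is the highest point drawn, and Gsr at −0.64 and Gclm at −0.63 are the lowest.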

How the data were processed

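Growth plate total RNA of 7 F1 mice was read with stranded paired-end sequencing, and the 7 mice were treated as replicates of 1 group. The authors used Bowtie and a combined transcriptome of both strains (mm10), and EMASE then gave an estimated count for each allele of each gene. These deposited estimated counts carry no normalization, and some are fractions, since a read that matches more than 1 allele or gene is shared out. Versions of these tools are not given in the sources used here.

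Gene symbols and coordinates came from GENCODE M21 (GRCm38), which matched 42462 of 43346 identifiers. A gene was tested if some allele had a count above 0 in each of the mice, which left 21805 genes. Counts were rounded and compared with edgeR 4.0.16 (limma 3.58.1, R 4.3.3): glmFit and glmLRT, as in the study, with TMM factors, estimateDisp and the allele as the only term. The FDR was adjusted by Benjamini-Hochberg over all tested genes. The fit was tested on simulated data first. Sign-flip permutation tests used log2 ratios with a pseudocount of 0.5. Totals were taken as whole within 0.0001. CPM used all counts of a mouse, at a depth of 14098019 to 37849667 counts. Wilson intervals are at the 95% level and cover counting error only.

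Members and gene lists were chosen with earlier results of these data known. All 9 members were named. From the redox lists, genes called with at least 10 counts in every mouse and 1 direction in all 7 mice were named, at most 4 per list and direction. The 10 neighbours of Nnt, the 3 genes most like it and genes sharing at least 75 transcript bases at 96% identity or more (blastn 2.17.0) complete the rule, and of the last only the longest matches are given. One gene most like Nnt and one match are not reported here.

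Both alleles of a mouse come from 1 animal and 1 library, which pairs them. Same-mouse deviations from the allele means correlated at 0.0654 on average over 7 mice (−0.0599 to 0.20). Alternatives were the quasi-likelihood test, DESeq2 1.42.0, the mouse as a block, other ways to set library size, other filters, unrounded counts, an FDR under 0.05, another pseudocount or length, and each mouse left out in turn.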

Additional observations from a re-analysis of the deposited data

How the results depend on the processing

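No called allele difference of the 9 genes turned its direction, and Prdx3, which was not called, ran from −0.03 to 0.03. Nnt, Gsr, Prdx5 and Txn2 passed an FDR of 0.20 under every alternative fit in which they were tested, with log2 fold changes of 1.04 to 1.12, −0.66 to −0.60, −0.46 to −0.41 and 0.36 to 0.45, and FDR of at most 1.2e-05, 5.4e-05, 0.0613 and 0.0166. Sod2 passed in 8 of 19 alternatives (FDR 0.0620 to 0.521), Idh2 in 1 of 20 and Txnrd2 in 1 of 19. The replicate block, with the mouse as the block, raised the count over the redox lists from 15 to 33 by the likelihood-ratio test, 28 by the quasi-likelihood test and 33 with 1 library size per mouse. It raised the count over all genes from 7111 to 9315, within 1.5 times, and changed no call of the 9 genes besides those of Sod2 and Idh2. A fit of genes whose totals were whole in each mouse held 10601 genes, 3453 of them called. It left 4 of the 9 genes (1 called), 39 of the list genes (9 called) and 5 of the Nnt neighbours (3 called). These counts fell because fewer genes were tested, Nnt itself among those left out, its total being off a whole number by at most 0.00964 in 2 mice. With any 1 mouse left out, 0 of the 8 neighbouring pairs of levels differed, since 6 mice allow no smaller p than 0.0312 before adjustment. Leaving the abundant Rn7s RNAs, 15.5% to 23.8% of counts, out of the library size raised all 9 levels in CPM, Nnt from 33.5 to 41.9, in the same order per kb. Depth limits Txnrd2 most, with 296 counts in the shallowest case.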

Other observations

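Dixon's test at the 95% level found no mouse apart from the others in any of 18 sets of values, the allele ratio and the level of each of the 9 genes, where 0.9 sets would be found by chance.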
